A study of Homo sapiens with 12 samples.

Results

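The genes described here encode the core-binding factors and the ETO family of corepressors, a member of which is fused to *RUNX1* in leukemia. They are the alpha subunit genes *RUNX1*, *RUNX2* and *RUNX3*, the beta subunit gene *CBFB*, and the ETO family corepressor genes *RUNX1T1* (ETO), *CBFA2T2* (MTGR1) and *CBFA2T3* (ETO2). They were chosen by symbol, and all 7 were found among the 56266 genes with a value in each library. Each of the 7 also passed the filter for testing, a TPM (transcript level scaled for gene length and library total) of at least 1 in at least 2 of 10 libraries, which left 21543 genes.

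The libraries came from H1, an established human embryonic stem cell (hESC) line, and from H1-*GATA2*-/-, a homozygous clone of H1 in which TALENs placed a neomycin cassette in *GATA2*. There were 2 libraries each of undifferentiated GATA2-/- hESCs, of WT and GATA2-/- HEs, and of WT and GATA2-/- HPCs. Differentiation took place on OP9, a mouse bone marrow stromal line. HEs (hemogenic endothelium, gated as CD34+, CD31+ and CD43-) were taken on day 8 and HPCs (hematopoietic progenitor cells, gated as CD34+ and CD43+) on day 9. Libraries of WT hESCs were not analysed here, the genotype is represented by 1 clone, and the labels do not say whether replicates came from separate cultures, so p-values measure only the spread between these libraries, which may be technical.

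A RUNX protein binds DNA through its Runt domain, and CBFB, which does not bind DNA itself, strengthens that binding. RUNX1 is required for the endothelial-to-hematopoietic transition, in which HEs give rise to the first blood progenitors, whereas RUNX2 is best known for bone formation and RUNX3 for T cells, sensory neurons and the gut. ETO family proteins do not bind DNA sequence-specifically. They bring NCOR complexes and histone deacetylases to other factors, and CBFA2T3 does so within the TAL1, LMO2 and LDB1 complexes of blood cells. The fusion of *RUNX1* to *RUNX1T1* is a recurrent lesion of acute myeloid leukemia.

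The libraries carried the marker genes of their stages. The summed TPM of 8 pluripotency genes was 5700 and 6530 in hESCs and at most 375 elsewhere, that of 12 endothelial genes was 4060 to 4960 in HEs, and that of 10 erythroid genes was 5050 to 16400 in HPCs. The pan-leukocyte gene *PTPRC* was at 0 in the 4 HE libraries. It was also low elsewhere, at 0.98 and 0.92 in WT HPCs, 0.68 and 3.09 in GATA2-/- HPCs and 0.56 and 3.06 in hESCs. Its value of 0 thus says little about blood cells among the HEs. TPM scales each library to about the same total (998299 to 999106 over the listed genes), which hides the read depth, and 16004 to 17335 genes a library had a TPM of at least 1. The targeted gene, *GATA2*, had a TPM of 2.05 and 5.54 in GATA2-/- hESCs, 106.8 and 78.03 in WT HEs, 110.93 and 94.06 in GATA2-/- HEs, 290.08 and 204.17 in WT HPCs, and 112.47 and 83.82 in GATA2-/- HPCs. Any RNA of the locus enters such a value, also one that runs through the cassette, so it is no check of the genotype labels.

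The RefSeq promoter table (GRCh38.p14, 250 bases before to 50 after a start site) held 7 windows for 5 of the 7 genes, and *CBFB* and *RUNX1T1* had no entry. Shown first are the windows of *RUNX1* and *CBFA2T3*, the pair whose RNA rose at every stage. The *RUNX1* window is chr21:34888650-34888949 on the minus strand, and the capitals mark an ETS core, CCGGAA. The *CBFA2T3* window is chr16:88941301-88941600 on the minus strand, where none of the motifs searched was present. For both genes only the window shown was searched, and any other start site was not.
RUNX1: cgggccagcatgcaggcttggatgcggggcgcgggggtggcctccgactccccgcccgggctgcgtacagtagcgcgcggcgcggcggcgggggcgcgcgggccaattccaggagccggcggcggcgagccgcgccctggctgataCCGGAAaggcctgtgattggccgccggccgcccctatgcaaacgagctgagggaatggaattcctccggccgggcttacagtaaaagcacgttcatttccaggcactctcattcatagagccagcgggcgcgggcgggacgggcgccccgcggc
CBFA2T3: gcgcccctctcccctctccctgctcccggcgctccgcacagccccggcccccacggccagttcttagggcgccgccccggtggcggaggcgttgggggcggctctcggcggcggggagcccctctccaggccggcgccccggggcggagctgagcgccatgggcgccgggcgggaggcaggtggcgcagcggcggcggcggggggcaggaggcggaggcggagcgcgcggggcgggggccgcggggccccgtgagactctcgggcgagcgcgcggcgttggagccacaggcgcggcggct
Both windows were rich in G and C, 72% and 83% against a median of 58.7% over all 35116 windows of the table. Each motif was searched on both strands. The RUNX site, TGTGGT, was present in 13.1% of all windows. The GATA site was searched as AGATAA, a common form of the motif, as AGATAG, which differs at its end, and likewise as TGATAA and, in the remaining form, as TGATAG. At least 1 of these was present in 25.0% of windows. The ETS core was present in 17.2% and the E-box, CAGCTG, in 17.9% of windows.

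The upstream windows of *RUNX2* and *RUNX3* are shown because they carry RUNX sites themselves. Genes of this family are transcribed from a distal and a proximal promoter, and the windows below are the more upstream of the 2 entries that each gene had. The *RUNX2* window is chr6:45328080-45328379 on the plus strand and the *RUNX3* window is chr1:24964961-24965260 on the minus strand. The capitals mark ACCACA, the reverse complement of TGTGGT.
RUNX2: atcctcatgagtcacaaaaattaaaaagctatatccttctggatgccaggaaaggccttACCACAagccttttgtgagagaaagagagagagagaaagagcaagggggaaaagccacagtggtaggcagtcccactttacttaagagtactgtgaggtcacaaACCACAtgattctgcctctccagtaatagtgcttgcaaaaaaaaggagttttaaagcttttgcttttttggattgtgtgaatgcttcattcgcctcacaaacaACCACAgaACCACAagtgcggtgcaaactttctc
RUNX3: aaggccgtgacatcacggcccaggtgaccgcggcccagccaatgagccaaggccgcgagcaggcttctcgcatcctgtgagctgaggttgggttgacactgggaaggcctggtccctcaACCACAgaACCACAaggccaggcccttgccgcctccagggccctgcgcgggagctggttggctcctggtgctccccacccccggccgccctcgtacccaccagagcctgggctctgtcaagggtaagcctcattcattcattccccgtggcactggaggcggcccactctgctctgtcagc
*RUNX2* held 4 sites and *RUNX3* held 2, where 1.31% of all windows held 2 or more and 5 windows of 35116 held 4 or more. A run of 18 bases with both sites in tandem, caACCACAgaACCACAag, was the same in both genes. It began 133 bases before the start site of *RUNX3* and at base 15 after that of *RUNX2*, and it occurred in 2 of the 35116 windows, these ones. The downstream windows of both genes held no RUNX site. A match in a window describes its letters and shows no binding, and TPM per gene does not separate the promoters.

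*RUNX1* (ENSG00000159216) lies at chr21:36160098-37376965 (GRCh37, the build of the files, minus strand). Its TPM was 1.48 and 0.13 in GATA2-/- hESCs, 77.92 and 65.87 in WT HEs, 44.76 and 19.43 in GATA2-/- HEs, 326.72 and 197.6 in WT HPCs, and 360.74 and 228.83 in GATA2-/- HPCs. The 3 stages did not overlap, and *RUNX1* moved from percentile 19.3 of tested genes in hESCs to percentiles 97.9 and 98.2 in WT and GATA2-/- HPCs. Each later library was above each earlier one for 29.4% of tested genes from GATA2-/- hESCs to HEs. From HEs to HPCs the share was 20.2% in WT and 26.6% in GATA2-/- cells. On the log2(TPM + 1) scale *RUNX1* rose by 4.19 from GATA2-/- hESCs to GATA2-/- HEs (SE 0.48, adjusted p = 0.000267 by limma), an 18.3-fold change on that scale. It rose by a further 3.24 from GATA2-/- HEs to GATA2-/- HPCs (SE 0.48, adjusted p = 0.00299), a call that was lost with only the libraries compared (adjusted p = 0.0904). In WT cells the rise from HEs to HPCs was 1.81 (SE 0.48, adjusted p = 0.0471), and that call was lost in 7 of 10 alternative fits, with adjusted p up to 0.229. The hESC replicates differed by 11.4 times at this low level, and over the alternatives the rise against hESCs was 3.61 to 5.62 in HEs, while in HPCs it was 6.86 to 8.90.

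*CBFA2T3* (ENSG00000129993, GRCh37 chr16:88941266-89043615, minus strand) followed the same order of groups apart from the HPCs. Its TPM was 1.67 and 1.20 in GATA2-/- hESCs, 30.82 and 19.34 in WT HEs, 14.67 and 6.64 in GATA2-/- HEs, 98.44 and 67.69 in WT HPCs, and 71.74 and 81.63 in GATA2-/- HPCs. Again the stages did not overlap, beside the shares of tested genes given for *RUNX1*, while the 2 genotypes of HPCs did. It rose by 2.17 from GATA2-/- hESCs to GATA2-/- HEs (SE 0.37, adjusted p = 0.00256 by limma), by 2.82 from GATA2-/- HEs to HPCs (SE 0.37, adjusted p = 0.00176) and by 1.70 from WT HEs to HPCs (SE 0.37, adjusted p = 0.0222). The WT call was lost in 4 of 10 alternative fits, with adjusted p up to 0.154. Fitted with only the libraries compared, the hESC to HE value had an adjusted p of 0.062 and the GATA2-/- HE to HPC value 0.0822, so neither passed there. An antisense gene, ENSG00000259881, shares 501 exonic bases with *CBFA2T3* and reached a TPM of at most 7.11. Whether the counting used strand is not stated, so reads of the 2 genes may not be separable.

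**Figure D1:**
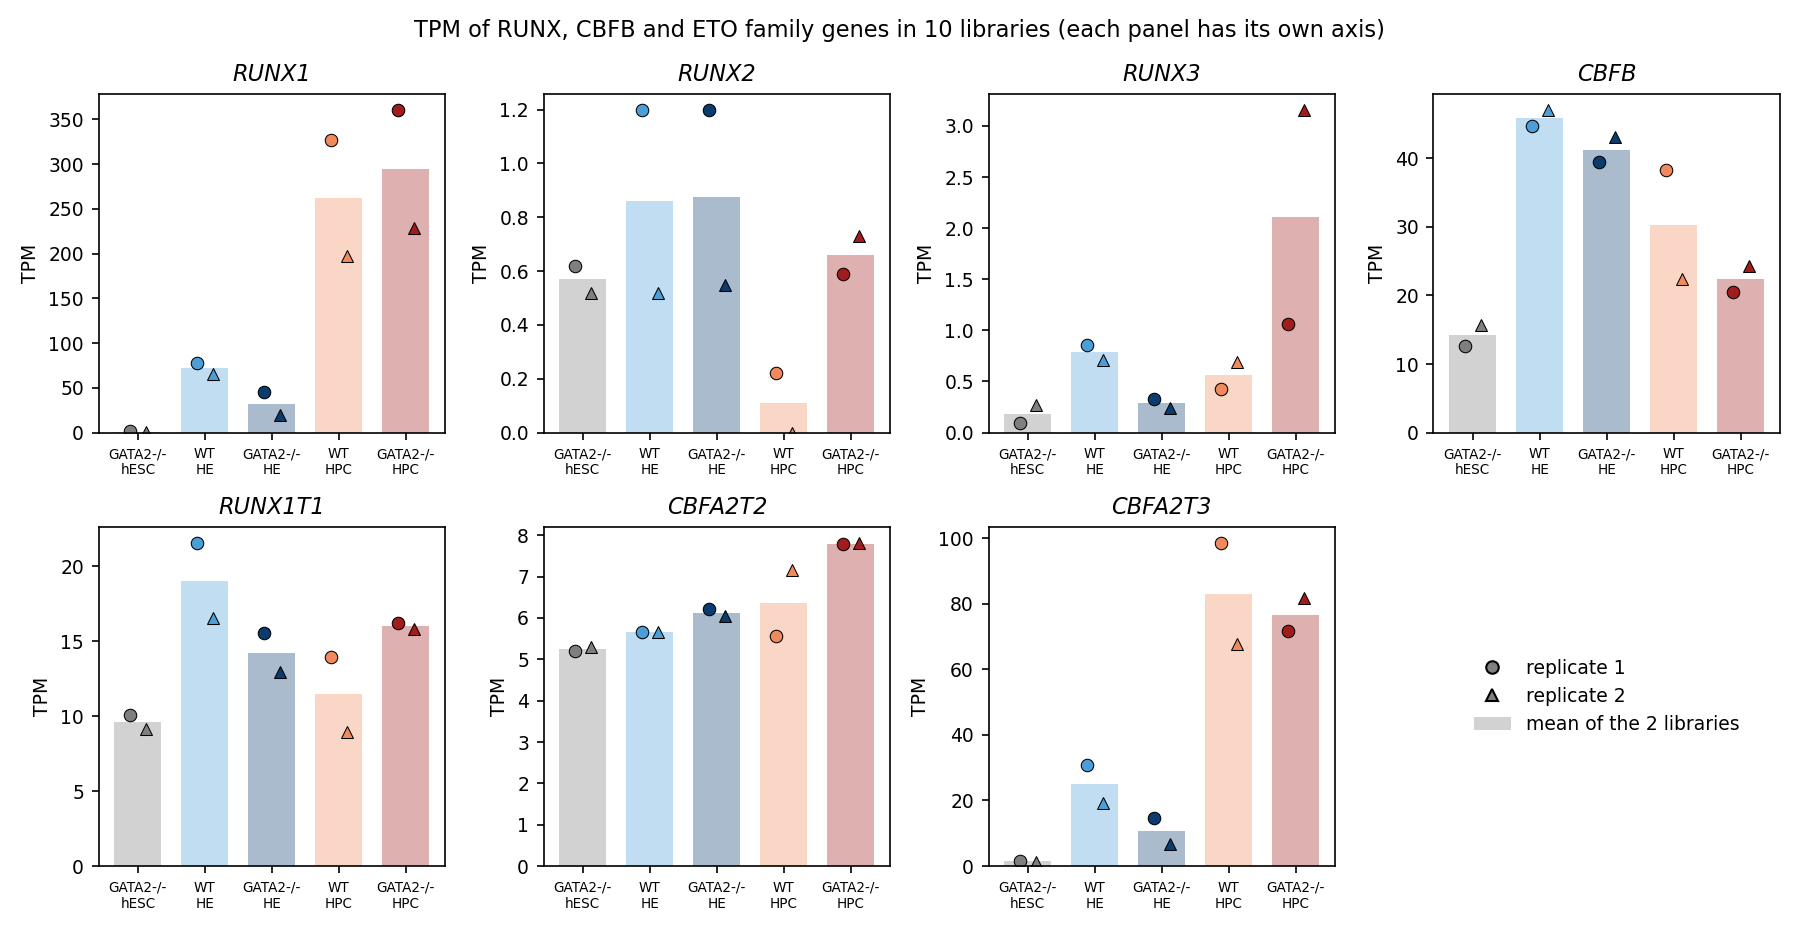
TPM (linear axes from 0, 1 scale per panel) of the 7 genes in 5 groups, with circles for replicate 1, triangles for replicate 2 and bars for the mean of the 2 libraries. *RUNX1* and *CBFA2T3* step up from hESCs to HEs to HPCs, *CBFB* is highest in HEs, and *RUNX2* and *RUNX3* stay at or below 3.16.

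The partner subunit did not follow *RUNX1*. *CBFB* (ENSG00000067955, GRCh37 chr16:67062887-67134961, plus strand) had a TPM of 12.68 and 15.69 in GATA2-/- hESCs, 44.67 and 47.1 in WT HEs, 39.48 and 43.05 in GATA2-/- HEs, 38.3 and 22.38 in WT HPCs, and 20.51 and 24.33 in GATA2-/- HPCs. The HE libraries were the highest of all 10 and the hESC libraries the lowest. The rise of 1.48 from GATA2-/- hESCs to HEs (SE 0.26, adjusted p = 0.00279 by limma) passed in all 10 alternative fits, with adjusted p up to 0.0362. From HEs to HPCs the log2 fold change was -0.63 in WT (SE 0.26, 95% interval -1.22 to -0.04, adjusted p = 0.188) and -0.86 in GATA2-/- cells (SE 0.26, 95% interval -1.44 to -0.27, adjusted p = 0.0651). Neither passed the threshold, although each HPC library was below each HE library in both genotypes, as held for 26.1% of tested genes in WT and 24.4% in GATA2-/- cells. With quantile normalization the GATA2-/- value was -0.83 with an adjusted p of 0.0495. Without WT HPC replicate 1 the WT value was -1.0 with an adjusted p of 0.0455.

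The ratio of alpha to beta subunit RNA was lowest in hESCs and highest in HPCs. The summed TPM of *RUNX1*, *RUNX2* and *RUNX3* was 0.173 and 0.0586 times that of *CBFB* in GATA2-/- hESCs, 1.79 and 1.42 times in WT HEs, and 1.17 and 0.47 times in GATA2-/- HEs. It was 8.55 and 8.86 times in WT HPCs and 17.7 and 9.57 times in GATA2-/- HPCs. TPM is corrected for length, so the ratio compares transcripts and not protein. *RUNX1* supplied 96.1% to 98.2% of the summed RUNX TPM in HEs and 98.3% to 99.8% in HPCs, but 67.6% and 14.1% in hESCs, where the sum was only 2.19 and 0.92.

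The other alpha subunit genes were near the lower limit of the data. *RUNX2* (ENSG00000124813, GRCh37 chr6:45295894-45632086, plus strand) had a TPM of 0.62 and 0.52 in GATA2-/- hESCs, 1.20 and 0.52 in WT HEs, 1.20 and 0.55 in GATA2-/- HEs, 0.22 and 0 in WT HPCs, and 0.59 and 0.73 in GATA2-/- HPCs. It passed the filter through the first replicate of each HE group, and no comparison of it passed the threshold (log2 fold changes -0.73 to 0.59). *RUNX3* (ENSG00000020633, GRCh37 chr1:25226002-25291612, minus strand) had a TPM of 0.09 and 0.27 in GATA2-/- hESCs, 0.86 and 0.71 in WT HEs, 0.33 and 0.24 in GATA2-/- HEs, 0.43 and 0.69 in WT HPCs, and 1.06 and 3.16 in GATA2-/- HPCs. Only the GATA2-/- HPC libraries reached a TPM of 1, which is how it passed the filter, so its rise of 1.32 against GATA2-/- hESCs (SE 0.40, adjusted p = 0.0363 by limma) is a description and supports nothing further. Without GATA2-/- HPC replicate 2 that value was 0.81 with an adjusted p of 0.153.

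Within the ETO family, *RUNX1T1* supplied the largest share of RNA in hESCs and *CBFA2T3* in HPCs. *CBFA2T3* supplied 9.86% and 7.67% of the summed TPM of the 3 genes in GATA2-/- hESCs, 53.1% and 46.6% in WT HEs, 40.3% and 25.9% in GATA2-/- HEs, 83.5% and 80.8% in WT HPCs, and 74.9% and 77.6% in GATA2-/- HPCs. *RUNX1T1* (ENSG00000079102, GRCh37 chr8:92967200-93115514, minus strand) was the most abundant of the 3 in hESCs, with a TPM of 10.07 and 9.16. The level was 21.53 and 16.52 in WT HEs, 15.56 and 12.91 in GATA2-/- HEs, 13.92 and 8.96 in WT HPCs, and 16.23 and 15.79 in GATA2-/- HPCs. *RUNX1T1* did not pass the threshold in any comparison of the main fit. The largest of its tested differences between 2 groups was -0.70 for WT HPCs against WT HEs (SE 0.27, 95% interval -1.31 to -0.10, adjusted p = 0.153 by limma). For GATA2-/- HPCs against hESCs (0.68, adjusted p = 0.0868) it passed in 2 alternative limma fits. These were quantile normalization (0.65, adjusted p = 0.0445) and a replicate block in HEs and HPCs only (0.84, adjusted p = 0.0293). It shares 66 exonic bases with an antisense gene, ENSG00000253576, whose TPM was at most 2.88. *CBFA2T2* (ENSG00000078699, GRCh37 chr20:32077881-32237842, plus strand) stayed between a TPM of 5.2 and 7.81 in all 10 libraries. Its TPM was 5.2 and 5.29 in GATA2-/- hESCs, 5.66 and 5.66 in WT HEs, 6.21 and 6.04 in GATA2-/- HEs, 5.56 and 7.17 in WT HPCs, and 7.79 and 7.81 in GATA2-/- HPCs. Its log2 fold changes lay between 0.10 and 0.49, and the largest of them, for GATA2-/- HPCs against hESCs, had a 95% interval from -0.11 to 1.10 (adjusted p = 0.205).

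**Figure D2:**
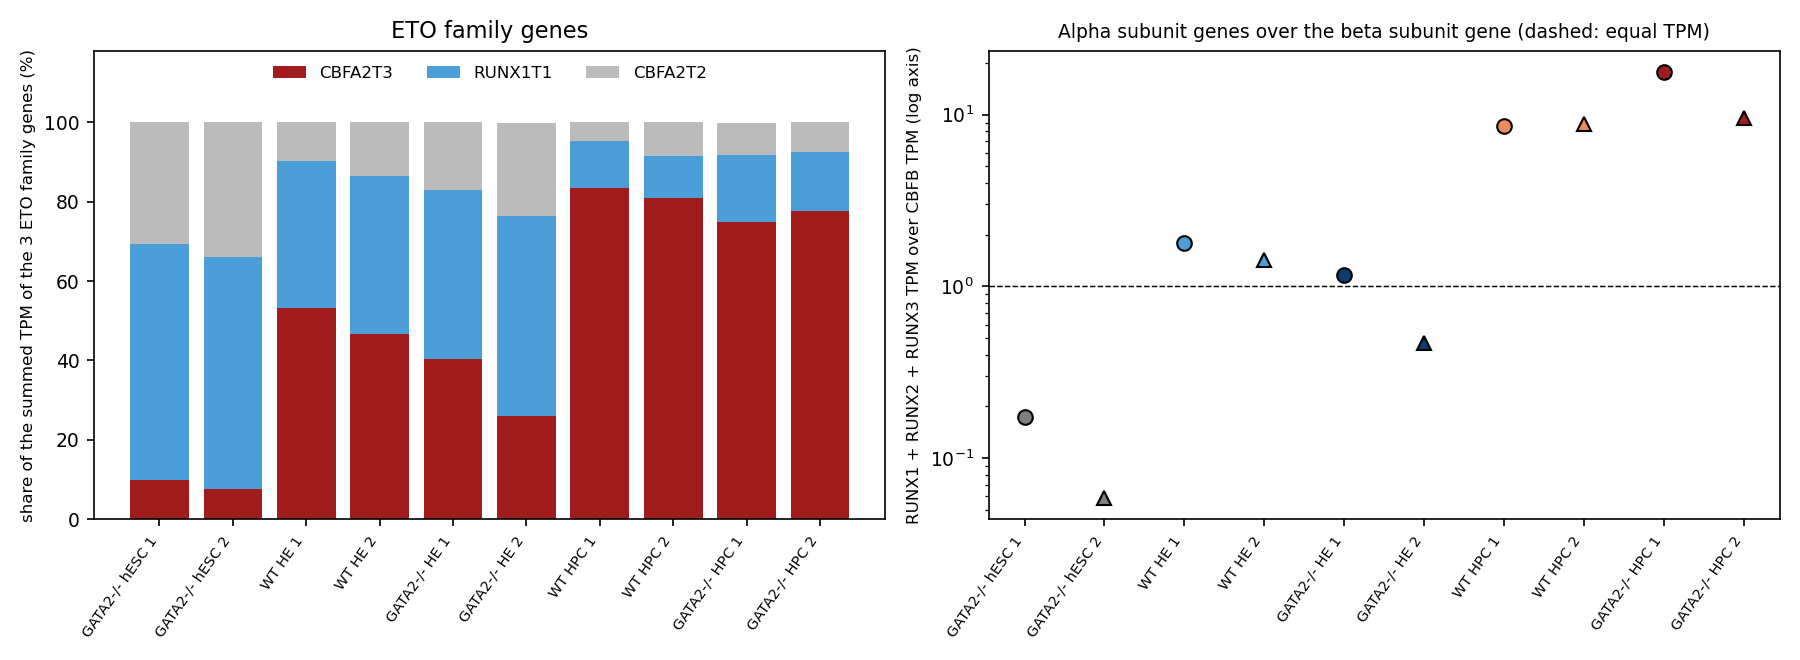
Left, the share (%) of the summed TPM of *CBFA2T3*, *RUNX1T1* and *CBFA2T2* that each gene supplied in each of 10 libraries. Right, the summed TPM of *RUNX1*, *RUNX2* and *RUNX3* over that of *CBFB* (log axis, circles for replicate 1, triangles for replicate 2), which lies below 1 in hESCs and in GATA2-/- HE replicate 2 and between 8.55 and 17.7 in HPCs.

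Set against all genes, 3 of the 7 were called higher and 0 lower between GATA2-/- HEs and hESCs, where 13.9% of tested genes were higher and 16.1% lower. Between GATA2-/- HPCs and hESCs *RUNX1* and *CBFA2T3* were called higher and 0 genes lower, against 14.2% and 16.4% of tested genes, and *RUNX3* is left out of this count because it passed the filter through these HPCs alone. From HEs to HPCs *RUNX1* and *CBFA2T3* were the 2 called genes in both genotypes, both higher. In WT cells 3.32% of tested genes were called higher and 6.59% lower, and in GATA2-/- cells 5.5% were higher and 7.24% lower. The log2 fold changes of the 7 genes had medians of 0.52, 0.68, -0.20 and 0.30 in these 4 comparisons, beside -0.024, 0, -0.014 and 0.027 over all tested genes.

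None of the 7 genes differed between genotypes at an adjusted p under 0.05. In HEs limma called 0 of the 7, and 0.0186% of tested genes. At an unadjusted p under 0.05 were 2 of the 7 (*RUNX1* and *CBFA2T3*), beside 4.85% of tested genes. In HPCs limma called 0 of the 7, and 0.0603% of tested genes, with 0 of the 7 at an unadjusted p under 0.05, beside 8.94% of tested genes. The difference of the genotype effect between HPCs and HEs, which equals the difference of the stage change between genotypes, was called for 0 of the 7 and for 0% of tested genes, with 2 of the 7 (*RUNX3* and *RUNX1T1*) and 1281 of all tested genes at an unadjusted p under 0.05.

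The values behind those tests were as follows. In GATA2-/- HEs *RUNX1* had a mean TPM of 32.1 ± 17.9 (SD, n = 2) against 71.9 ± 8.52 (SD, n = 2) in WT HEs, a log2 fold change of -1.25 (SE 0.48, 95% interval -2.33 to -0.16, adjusted p = 0.944 by limma). *CBFA2T3* had a mean of 10.7 ± 5.68 (SD, n = 2) against 25.1 ± 8.12 (SD, n = 2), a log2 fold change of -1.22 (SE 0.37, 95% interval -2.06 to -0.37, adjusted p = 0.792). For both genes each GATA2-/- library was below each WT library, as held for 16.5% of tested genes in this comparison. With these 2 included, 5 of the 7 genes had that order in HEs, and 1 had the reverse order. The log2 fold changes of the other 5 genes in HEs ran from -0.47 (*RUNX3*) to 0.10 (*CBFA2T2*). *CBFB* differed by -0.15 with a 95% interval from -0.74 to 0.44. In HPCs the estimates were 0.18 for *RUNX1* (SE 0.48, 95% interval -0.91 to 1.26) and -0.09 for *CBFA2T3* (SE 0.37, 95% interval -0.94 to 0.75). For both genes the libraries of the 2 genotypes overlapped there. The other 5 genes in HPCs ran from -0.38 (*CBFB*) to 0.91 (*RUNX3*, SE 0.4, adjusted p = 0.557 by limma). Between them were *CBFA2T2* at 0.27, *RUNX1T1* at 0.48 and *RUNX2* at 0.59. Each GATA2-/- HPC library was above each WT one for 4 of the 7 genes, as held for 19.7% of tested genes. The reverse order held for 0 of the 7. Against the HE values the HPC estimates were higher by 1.43 for *RUNX1* (SE 0.68, adjusted p = 0.871) and by 1.13 for *CBFA2T3* (SE 0.53, adjusted p = 0.863), so the genotype effect was not shown to differ between stages.

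**Figure D3:**
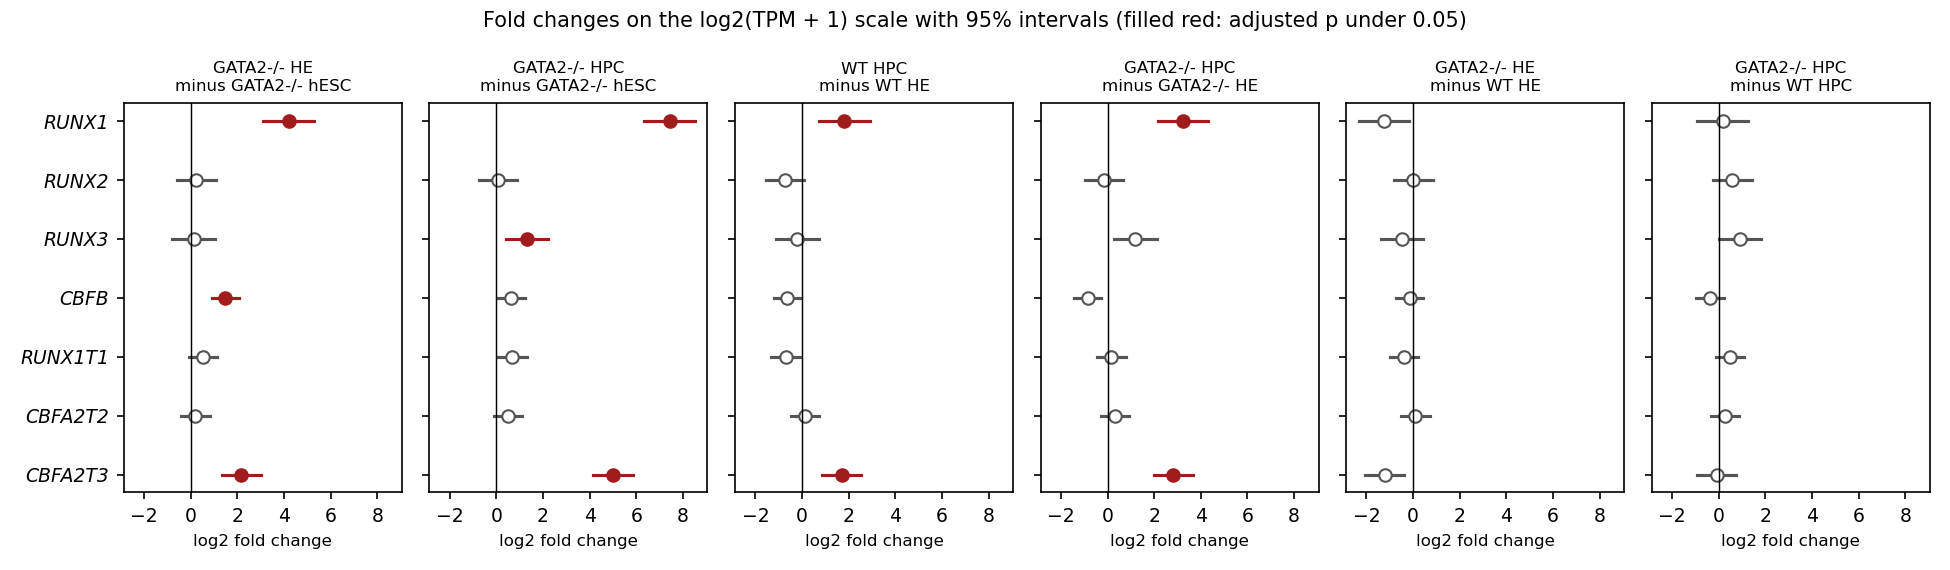
Log2 fold changes of TPM + 1 for the 7 genes in 6 comparisons, with 95% intervals from limma, filled red where the adjusted p was under 0.05. The filled points are in the 4 comparisons of stages, and none is in the 2 comparisons of genotypes.

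Sums of blood cell markers were also lower in the GATA2-/- HE libraries. The summed TPM of 10 hematopoietic genes was 469 and 444 in WT HEs but 366 and 317 in GATA2-/- HEs, with 8 of 10 lower and *PTPRC* at 0 in all 4. The summed TPM of 10 erythroid genes was 134 and 88.5 in WT HEs but 56.2 and 38.5 in GATA2-/- HEs, with 8 of 10 lower. The 12 endothelial genes summed to 4060 and 4350 in WT HEs and 4960 and 4470 in GATA2-/- HEs, with 10 of 12 higher. Of the mesenchymal genes, summed to 830 and 673 in WT HEs and 742 and 543 in GATA2-/- HEs, 9 of 10 tested were lower, with a median log2 fold change of -0.37. Limma called 0 genes of these 4 lists between HE genotypes, with 2, 6, 1 and 1 at an unadjusted p under 0.05, as for 4.85% of tested genes. In bulk RNA, fewer cells of a kind and less RNA per cell cannot be told apart, and the part of these markers in the lower *RUNX1* and *CBFA2T3* levels was not tested. *RUNX1* stood at 2.53 and 3.41 times the TPM of *CBFA2T3* in WT HEs and at 3.05 and 2.93 times in GATA2-/- HEs, which overlapped.

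*RUNX1* works in blood progenitors beside TAL1, LYL1, LMO2, GATA2, FLI1 and ERG, the so-called heptad, and with GATA1 and the bridging proteins LDB1 and the E-proteins. Of 11 such partner genes, 8 rose and 0 fell from GATA2-/- hESCs to HEs, led by *TAL1* (log2 fold change 7.53), *FLI1* (7.51), *LMO2* (6.99) and *LYL1* (6.40), where 13.9% of tested genes rose and 16.1% fell. *TAL1* had a TPM of 188.8 and 156.62 in WT HEs and 211.56 and 161.6 in WT HPCs, which overlapped, while *RUNX1* rose between the same libraries. Against hESCs, 8 partners rose and 0 fell in GATA2-/- HPCs, among them *TAL1* (7.63), *GATA1* (7.34), *LMO2* (7.32) and *FLI1* (7.28), beside 14.2% and 16.4% of tested genes. From HEs to HPCs 3 partners rose in WT cells, *GATA1* (3.62), *GATA2* (1.40) and *LDB1* (1.04), and 2 in GATA2-/- cells, *GATA1* (5.76) and *LDB1* (1.21). *ERG*, an endothelial and stem cell ETS factor, fell in both genotypes (-2.72 in WT and -2.36 in GATA2-/- cells). Of tested genes 3.32% rose and 6.59% fell over this step in WT cells, and 5.5% rose and 7.24% fell in GATA2-/- cells. Between genotypes limma called 0 of the 11 in HEs and 0 in HPCs, with 1 at an unadjusted p under 0.05 in each, beside 4.85% and 8.94% of tested genes. In HPCs that gene was *GATA2*, the targeted gene itself (log2 fold change -1.32). The largest difference in HEs was that of *GATA1*, -2.41 beside a median of -0.04 over the 11 partners. *GATA1*, named here after its values were seen, had a TPM of 18.36 and 12.05 in WT HEs and 2.78 and 1.37 in GATA2-/- HEs.

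Of 23 listed genes known to be bound and regulated by RUNX1 in blood cells, 19 were tested. From GATA2-/- hESCs to HEs 6 rose and 3 fell, against 13.9% and 16.1% of tested genes, with rises of 4.94 for *GFI1B*, 3.49 for *GFI1*, 3.12 for *CSF2RB* and 2.20 for *SPI1*, which encodes the myeloid factor PU.1. GFI1 and GFI1B are repressors that shut off the endothelial program downstream of RUNX1, and CSF2RB is a cytokine receptor chain. From GATA2-/- hESCs to HPCs 12 rose and 2 fell, against 14.2% and 16.4%, led by *ITGB3* (7.72), *ITGA2B* (6.73), *GFI1B* (6.62) and *NFE2* (6.57), which are platelet integrin chains and megakaryocyte or erythroid factors. From HEs to HPCs 9 rose in each genotype, against 3.32% of tested genes in WT and 5.5% in GATA2-/- cells. The leading rises in WT cells were *ITGA2B* (4.21), *ITGB3* (3.54), *NFE2* (3.01) and *CSF1R* (2.84), the receptor for M-CSF, and in GATA2-/- cells *ITGB3* (6.05), *NFE2* (5.47), *ITGA2B* (4.89) and *SPI1* (4.25). *MYH10*, a nonmuscle myosin gene that RUNX1 silences in megakaryocytes, was the 1 target called lower in both, with -1.51 in WT (adjusted p = 0.00277 by limma) and -1.06 in GATA2-/- cells (adjusted p = 0.0118). The medians of the 19 genes were 0.53, 3.38, 1.61 and 1.68 in these 4 comparisons, against -0.024, 0, -0.014 and 0.027 over all tested genes. The list shares *ITGA2B* and *MYB* with the hematopoietic markers.

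Between genotypes 1 of the 19 target genes passed. *PF4*, platelet factor 4, had a TPM of 37.33 and 32.12 in WT HEs and 3.66 and 4.70 in GATA2-/- HEs, a log2 fold change of -2.79 (SE 0.27, adjusted p = 0.0249 by limma), where 0.0186% of tested genes passed. The call was lost without any 1 of the 4 HE libraries (-2.64 to -2.93, adjusted p = 0.0816 to 0.197) and with only the libraries compared (adjusted p = 0.303), fits in which 0 of all genes passed. WT HPCs had 199.58 and 307.34 and GATA2-/- HPCs 76.54 and 99.51, a log2 fold change of -1.49 (SE 0.27, adjusted p = 0.153). In HEs 17 of the 19 genes were lower in GATA2-/- cells, with a median of -0.50 against -0.007 over all tested genes and 8 at an unadjusted p under 0.05, as for 4.85% of tested genes. The count does not separate genes that RUNX1 activates from those it silences. *MYH10*, which it silences, is among the 17 (mean TPM 77.8 in GATA2-/- HEs and 86.7 in WT HEs). The genes next in size, named after their values were seen, were *SPI1* at -2.50 (adjusted p = 0.25), *NFE2* at -2.33 (adjusted p = 0.406) and *ITGB3* at -2.18 (adjusted p = 0.322), none of which passed. *GFI1B* had a value of -0.27. In HPCs 11 of the 19 were lower and 8 higher, and 0 were called by limma. An unadjusted p under 0.05 was found for 1 of the 19, beside 8.94% of tested genes, and the median was -0.20 against 0.054 over all tested genes. The lower levels of these genes stood beside the lower blood marker sums of the same HE libraries, whose part in them was not tested.

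**Figure D4:**
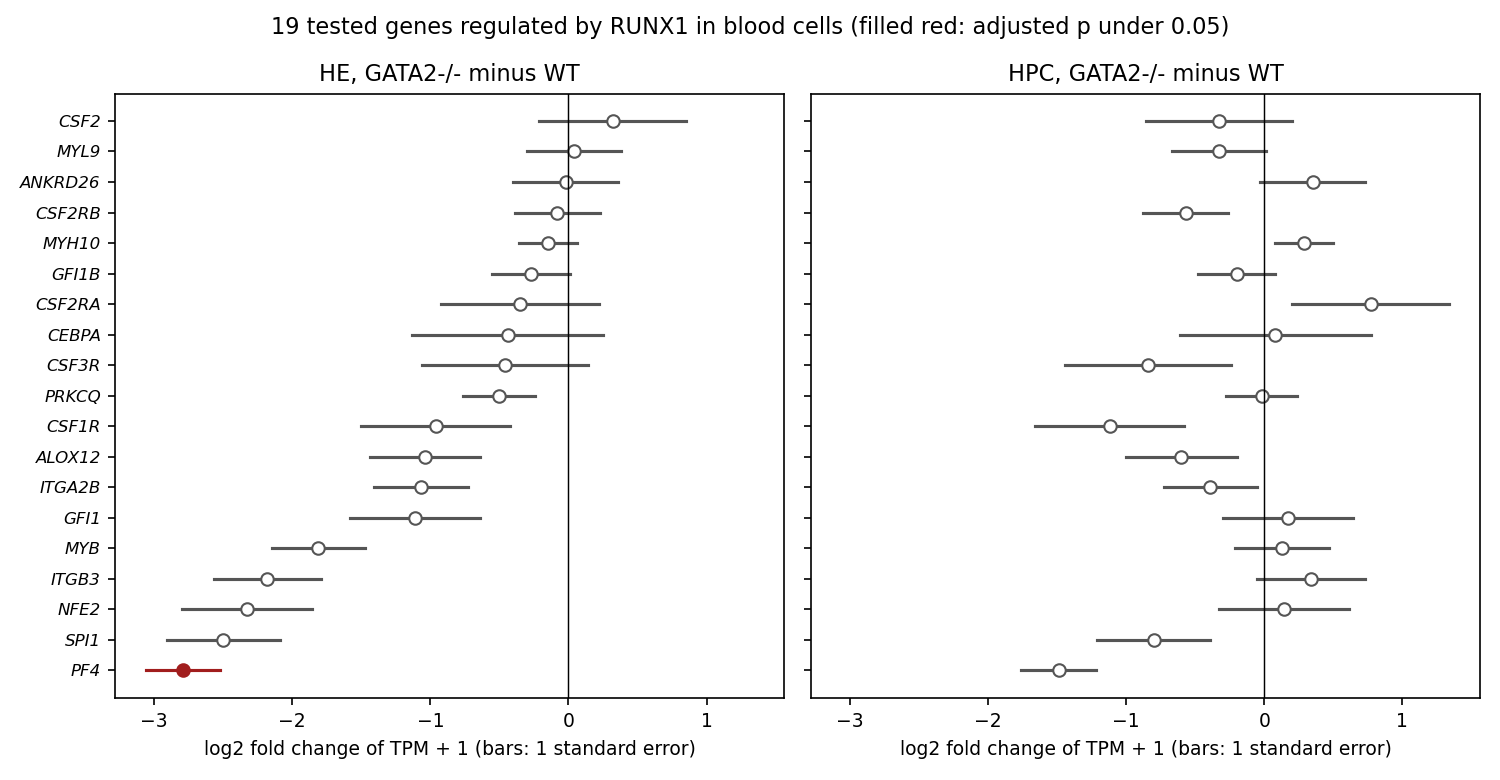
Log2 fold changes of TPM + 1 between GATA2-/- and WT cells for 19 genes regulated by RUNX1, in HEs (left) and HPCs (right), with bars of 1 standard error from limma. *PF4* in HEs is the 1 filled point (adjusted p = 0.0249, lost without any 1 HE library), and 17 of the 19 points lie below 0 in HEs against 11 in HPCs.

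Genes that act on RUNX proteins moved in both directions. Of 16 coactivators and modifying enzymes tested, 5 rose and 4 fell from GATA2-/- hESCs to HEs, with *WWTR1* at 2.44, *SMURF2* at 1.59, *HIPK2* at 1.57 and *PRMT6* at -1.51, beside 13.9% and 16.1% of tested genes. From hESCs to GATA2-/- HPCs 4 rose and 6 fell, with *YAP1* at -4.07, *HIPK2* at 3.14, *SRC* at 2.04 and *CDK6* at 1.93, beside 14.2% and 16.4%. *YAP1* and *WWTR1* encode the Hippo pathway coactivators that bind RUNX proteins. *WWTR1* had a TPM of 88.03 and 98.43 in WT HEs and 6.5 and 4.13 in WT HPCs, and from HEs to HPCs it fell in both genotypes (-3.92 in WT and -3.67 in GATA2-/- cells). *YAP1* fell in the same comparisons (-3.18 and -3.06). *HIPK2*, a kinase of RUNX1 and EP300, rose by 1.01 in WT and 1.57 in GATA2-/- cells over this step, *SMURF2*, a ubiquitin ligase, fell by 1.26 in WT, and *CREBBP*, an acetyltransferase, rose by 0.96 in GATA2-/- cells. In all, 2 rose and 3 fell in WT cells, beside 3.32% and 6.59% of tested genes, and 3 rose and 2 fell in GATA2-/- cells, beside 5.5% and 7.24%. By limma 0 of the 16 differed between genotypes in HEs or in HPCs, with 0 and 1 at an unadjusted p under 0.05, beside 4.85% and 8.94% of tested genes.

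Of 16 corepressor genes of RUNX and ETO proteins, 2 rose and 3 fell from GATA2-/- hESCs to HEs, where 13.9% of tested genes rose and 16.1% fell, and 1 rose and 3 fell to HPCs, beside 14.2% and 16.4%. *ZBTB16*, which encodes PLZF, a zinc finger protein that binds ETO, rose by 4.33 from GATA2-/- hESCs to HPCs, by 2.96 from WT HEs to HPCs and by 3.13 from GATA2-/- HEs to HPCs. It had a TPM of 2.25 and 2.69 in WT HEs, and of 28.84 and 23.45 in WT HPCs. *TLE1*, a Groucho corepressor that binds the C-terminal end of RUNX proteins, fell in GATA2-/- cells from hESCs to HPCs (-2.94) and from HEs to HPCs (-1.62). *TLE2* fell by 2.46 from WT HEs to WT HPCs, where 1 library was at 0, and *TLE3* rose by 1.24 from GATA2-/- hESCs to HEs. The deacetylase genes *HDAC2* and *HDAC3* fell from hESCs to GATA2-/- HPCs (-0.55 and -0.92). Limma called 0 of the 16 between genotypes in HEs or in HPCs, with 0 and 2 at an unadjusted p under 0.05, beside 4.85% and 8.94% of tested genes.

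For the genes tied to *RUNX2* and *RUNX3* the calls were against hESCs, apart from *BCL2L11*. Among 9 tested osteochondral targets and partners of *RUNX2*, 3 fell in GATA2-/- HEs and in GATA2-/- HPCs against hESCs. These were *ALPL* (-5.29 and -5.16), which encodes an alkaline phosphatase that stem cells also make, *SPP1* (-3.44 and -5.07) and *SOX9* (-1.46 and -1.66), and *SP7* rose by 1.39 in HEs, against 13.9% of tested genes higher and 16.1% lower there. *SOX9* reached a TPM of 1 in the hESC libraries alone (2.48 and 1.85, at most 0.38 elsewhere) and so passed the filter only through the group where it was high, which makes its values a description. *SPP1* had a TPM of 245.4 and 36.88 in the 2 hESC libraries. No osteochondral gene was called by limma from HEs to HPCs or between genotypes. For the step 0 and 0 had an unadjusted p under 0.05 in WT and GATA2-/- cells, beside 22.4% and 26.8% of tested genes. For the genotypes 0 and 1 had one in HEs and HPCs, beside 4.85% and 8.94%. Among 8 tested genes regulated by RUNX3 in lymphoid and myeloid cells, *ITGAL* (2.06), *CD4* (2.03) and *BCL2L11* (1.05) were called higher and *ITGAE* (-1.24) lower in GATA2-/- HPCs against hESCs, with 4 higher and 1 lower in all, beside 14.2% and 16.4% of tested genes. *ITGAE* was also lower in HEs (-1.11), and *BCL2L11*, a pro-apoptotic gene, rose by 1.64 from GATA2-/- HEs to HPCs. Limma called 0 of the 8 between genotypes in HEs and in HPCs, although *RUNX3* itself stood at 1.06 and 3.16 in GATA2-/- HPCs. An unadjusted p under 0.05 was found for 1 and 0 of the 8, beside 4.85% and 8.94% of tested genes.

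Neighbouring genes give the positional context. Of 8 tested neighbours of *RUNX1* on chromosome 21, 0 rose and 3 fell from GATA2-/- hESCs to HEs, led by *CBR1* (-4.81), where *RUNX1* rose, against 13.9% and 16.1% of tested genes. The count includes *CBR3* (-2.34), which passed the filter through the hESC libraries alone (7.2 and 2.13, at most 0.42 elsewhere), so that its value is a description. The 1 called neighbour from WT HEs to HPCs, *RCAN1*, fell by 1.22, where 3.32% of tested genes rose and 6.59% fell. Of 18 genes near *CBFA2T2* on chromosome 20, 3 rose and 1 fell from GATA2-/- hESCs to HEs, beside 13.9% and 16.1% of tested genes. They were *DNMT3B* at -3.36, *ASXL1* at 2.62, *ID1* at 1.88 and *RALY* at 0.54. From hESCs to GATA2-/- HPCs 2 rose and 2 fell, beside 14.2% and 16.4%. From HEs to HPCs 0 rose and 1 fell in WT cells, beside 3.32% and 6.59%. In GATA2-/- cells 0 rose and 4 fell over this step, beside 5.5% and 7.24%. Between genotypes limma called 0 neighbours of either gene at both stages. An unadjusted p under 0.05 was found for 0 and 1 on chromosome 21 and 5 and 6 of 18 on chromosome 20, beside 4.85% of tested genes in HEs and 8.94% in HPCs. In direction 13 of the 18 were higher in GATA2-/- HEs and 8 of the 18 in GATA2-/- HPCs. *ASXL1*, a chromatin regulator gene, had a TPM of 60.93 and 58.41 in WT HEs and 98.5 and 94.16 in GATA2-/- HEs (log2 fold change 0.68, SE 0.17, adjusted p = 0.575 by limma). Its TPM was 53.38 and 43.76 in WT HPCs and 93.74 and 81.0 in GATA2-/- HPCs (log2 fold change 0.84, SE 0.17, adjusted p = 0.211). Each GATA2-/- library was above each WT library in both stages, as held for 13.8% of tested genes in HEs and 19.7% in HPCs. *HM13*, *BCL2L1*, *TPX2* and *POFUT1*, which with *ASXL1* lie from 30102231 to 31027122 (GRCh37), had the same order in both stages. The rest of the 18 did not, among them *ID1*, which lies between *HM13* and *BCL2L1*. *CBFA2T2* itself, which is not counted in the 18, had this order in both stages, with log2 fold changes of 0.10 in HEs and 0.27 in HPCs. So did *SETD4* and *HLCS* on chromosome 21, while the other neighbours of *RUNX1* did not. Apart from *CBFA2T2*, the genes with this order were chosen after their values were seen.

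Across the 10 libraries the log2(TPM + 1) of *RUNX1* and *CBFA2T3* had a Pearson r of 0.98, the highest among the 21 pairs of the 7 genes. The other pairs lay between -0.24 (*RUNX2* with *CBFA2T3*) and 0.74 (*RUNX3* with *CBFA2T2*), and *RUNX1* and *CBFB* had 0.46. All such values share 10 libraries that fall into 3 stages, so differences between stages enter every r. Among 11923 tested genes (mean TPM of 5 or more), those most like *RUNX1* were *LYN* (r = 0.994), *SRC* (0.993) and *MAVS* (0.992), and those most like *CBFA2T3* were *NXF3* (0.998), *MICALL2* (0.996) and *MYL4* (0.993). *CBFB* was closest to *TBC1D22A* (0.984), *GRASP* (0.981) and *MVB12A* (0.977), and *RUNX1T1* to *MAPKBP1* (0.952), *TRIP12* (0.934) and *PDE3B* (0.926). For *CBFA2T2* the values were lower, and *MIR1273A* (0.949) and *MT-TP* (0.909), which are short RNA genes, stood beside *BNIP2* (0.904).

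Replicate 1 was higher than replicate 2 in all 5 groups for *RUNX1* and for *RUNX1T1*, as for 8.17% of tested genes. In HEs and HPCs the second libraries share a mark in their file headings that the first lack, and the meaning of that mark was not given. *CBFB* and *CBFA2T2* had the higher value in replicate 1 in 1 group each.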

How the data were processed

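RNA-Seq was analysed in 10 libraries in 5 groups of 2, grouped by the sample labels. The authors made TruSeq libraries, sequenced short single-end reads on a MiSeq, trimmed them with Trimmomatic, mapped them to hg19 with Bowtie and deposited TPM per Ensembl gene. The study's methods name Cufflinks for transcript abundance and the submitters' processing notes name RSEM and mm10. Which program gave the deposited TPM and the use of strand are not given in the sources used here.

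From the deposited TPM, log2(TPM + 1) was fitted with limma 3.58.1 in R 4.3.3 (eBayes with trend, 1 mean per group, all 10 libraries, Benjamini-Hochberg over all 21543 genes tested, threshold 0.05). Fold changes are on the log2(TPM + 1) scale and understate changes of low genes. The fit was tested on simulated data. Depth is unknown, so precision was judged from the 2 replicates alone. The study's Cuffdiff test needs alignments and was not repeated.

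The genes and lists were chosen with earlier results of these data known. Named beside the 7 genes were *GATA2*, each listed gene that passed between genotypes, up to 4 listed genes with the largest change per stage comparison among those that passed, and the 3 genes most like each member with a mean TPM of at least 1. Alternatives were a pseudocount of 0.1, no filter, only the libraries compared, quantile normalization, the replicate number as a block, and each library left out. Positions are from GENCODE v44 lifted to GRCh37, and promoters and motifs from RefSeq on GRCh38.p14. Figures and summaries used Python 3.11.15, pandas 2.3.3 and matplotlib 3.10.9. 1 gene of the RUNX1 target list is not reported here.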

Additional observations from a re-analysis of the deposited data

Results flagged for a closer look

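*RUNX3* and *RUNX1T1* stood apart because the libraries of the 2 genotypes were fully separated in opposite directions in the 2 stages. *RUNX1* also changed sign, from -1.25 in HEs to 0.18 in HPCs, but its HPC libraries overlapped. For *RUNX3* each GATA2-/- library was below each WT library in HEs and above each in HPCs, and the genotype effect was higher in HPCs than in HEs by 1.39 on the log2(TPM + 1) scale (SE 0.57, 95% interval 0.10 to 2.68, adjusted p = 0.818 by limma). *RUNX1T1* showed the same order of libraries, with a difference of 0.87 (SE 0.38, 95% interval 0.01 to 1.73, adjusted p = 0.84 by limma). Neither difference passed the correction over all genes. Full separation in opposite directions in the 2 stages, in this order or the reverse, was found in 898 of 21543 tested genes (4.17%). *RUNX3* had a TPM of at most 0.86 outside GATA2-/- HPCs.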

How the results depend on the processing

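Of 518 recomputed log2 fold changes of the 7 genes, 483 kept their direction and their side of the threshold, 19 no longer passed, 5 newly passed and 11 changed sign. From WT HEs to HPCs, where 2 genes were called, 1 was called (*CBFA2T3*) with a pseudocount of 0.1 and 1 (*CBFA2T3*) with no filter, 0 with only the libraries compared, and 0 to 1 with each library left out. The call of 0 came without WT HE replicate 2 and without WT HPC replicate 2, and without WT HPC replicate 1 the 1 gene called was *CBFB*. From GATA2-/- HEs to HPCs 0 of 2 genes were called with only the libraries compared, a fit in which 0 of all genes passed, against 2745. *CBFA2T2* turned to -0.02 in the difference between stages with quantile normalization, and *RUNX3* turned to -0.0028 between GATA2-/- HEs and hESCs with a replicate block in HEs and HPCs only, an alternative chosen after seeing the data.

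With each library left out, 7 differences that had not passed changed sign in at least 1 fit. They ranged from -0.02 to 0.29 for *CBFA2T2* between WT HPCs and HEs, from -0.36 to 0.17 for *CBFA2T3* and from -0.18 to 0.54 for *RUNX1* between HPC genotypes, and from -0.60 to 0.15 for *CBFB* in the difference between stages. For *RUNX2* they ranged from -0.02 to 0.49 between GATA2-/- HEs and hESCs, from -0.25 to 0.28 between HE genotypes and from -0.41 to 0.10 between GATA2-/- HPCs and HEs. A group left with 1 library was assumed to vary like the others.

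The differences between replicates 1 and 2 correlated across genes with r = 0.123 between the HE genotypes and 0.055 between the HPC genotypes. These were the 2 highest values among the pairs of groups, and the main fit did not pair the replicates. The second HE and HPC libraries share a heading mark of unstated meaning, so whether the numbers pair them is not known. With the replicate block 3, 3, 2 and 2 of the 7 genes were called in the comparisons of stages and 0 in the others, as without it. The second of these counts includes *RUNX3* in both fits, which passed the filter through GATA2-/- HPCs alone and so is no support. Over all genes the block gave 2 in place of 4 calls between HE genotypes and 3 in place of 13 between HPC genotypes. These were 13 in HEs with no filter, 6 in HPCs with a pseudocount of 0.1, 0 in HEs and 0 to 9 in HPCs with each library left out, and 0 in both with only the libraries compared, which also gave 0 in place of 2134 from WT HEs to HPCs and 4386 in place of 6586 from GATA2-/- hESCs to HPCs. The causes were not tested. TPM keeps no depth, so counting error, which weighs most on *RUNX2* and *RUNX3*, could not be given.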
